A study of Mus musculus with 8 samples.

Results

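Insulin-like growth factors, their receptors and their binding proteins were followed in cultures that the labels call primary osteoblasts from mouse calvaria, the roof of the skull. The 10 genes were taken by symbol from the deposited count table (Igf1, Igf2, Ghr, Igf1r, Igf2r, Igfbp3, Igfbp4, Igfbp5, Igfbp6 and Igfbp7), and all 10 were among its 25239 symbols. Of these, 7 had enough counts to be tested, and Igf2, Igfbp3 and Igfbp6 did not pass the filter on low counts. The series holds 8 libraries of polyadenylated RNA from primary cells, 4 of wild-type littermate controls and 4 labelled as an OSX-SphK2 knockout, each numbered 1 to 4. OSX is osterix, the osteoblast transcription factor encoded by Sp7, and SphK2 is sphingosine kinase 2. The labels give no strain, age, sex, culture time or number of animals per library, and do not say, beyond the name OSX, what drives the deletion or whether controls carry the driver.

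Insulin-like growth factor 1 is a secreted growth factor that bone cells make under the control of growth hormone, which acts through the receptor encoded by Ghr. It signals through the tyrosine kinase encoded by Igf1r, while the receptor encoded by Igf2r binds insulin-like growth factor 2 and carries it to lysosomes for breakdown. The binding proteins hold the growth factors in the matrix and in fluid. Igfbp4 is best known as an inhibitor and Igfbp5 as a matrix-bound form abundant in bone, and Igfbp7 encodes a related protein that binds the growth factors only weakly. Macrophages also make Igf1, so in a mixed culture its messenger need not come from osteoblasts.

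Several facts of the libraries touch every value below. Total counts ran from 14347495 to 19065421 per library. Sphk2 stood at 75.8, 64.2, 82.5 and 133.8 CPM (TMM-scaled CPM, a count relative to its library total) in controls 1 to 4, compared with 69.7, 72.3, 72.1 and 131.1 CPM in knockout-labelled 1 to 4, with no difference past the threshold. The labels do not say which part of the gene was deleted, and exons of Rpl18 and Dbp overlap it on the opposite strand, so its count does not check the labels, and every direction is that of the libraries as labelled. The 15 macrophage markers summed to 40519 to 67117 CPM per library and the 12 osteoblast markers to 4161 to 16884 CPM. Of these, 15 of 15 and 12 of 12 had a count in at least 1 library. Most of the osteoblast sum was Col1a1, Col1a2, Sparc and Spp1, while Sp7 stood at 3.29 to 46.2 CPM. The late osteoblast genes Bglap and Dmp1 were at or under 0.78 CPM except in knockout-labelled 1, at 42.3 and 13.7 CPM. The libraries numbered 4 stood apart in both groups: the 9 osteoclast markers summed to 10100 and 6659 CPM there and to 140.8 to 233.6 CPM elsewhere. The 9 stromal and fibroblast markers were lower there, at 3898 and 2828 CPM against 9613 to 17653 CPM elsewhere. So were the osteoblast sums, at 6436 and 4161 CPM against 7713 to 16884 CPM. The 5 chondrocyte markers were also lower, at 46.0 and 237.9 CPM against 443.1 to 1309 CPM. Macrophage sums there were 48359 and 67117 CPM. The 5 endothelial markers were higher, at 24.3 and 33.3 CPM against 7.39 to 11.2 CPM. In bulk RNA, fewer cells of one type and less RNA per cell cannot be told apart.

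Scaled for transcript length, the binding proteins Igfbp7 and Igfbp4 were the most abundant of the 10 genes, and Igf2 and Igfbp3 had the lowest means. The levels were 186.1 ± 114.9 CPM per kilobase (SD, n = 8) for Igfbp7 and 180.3 ± 73.1 for Igfbp4, and each exceeded the other in 4 of 8 libraries, so this pair of neighbours was not separated. Igf1 followed at 63.4 ± 33.7 CPM per kilobase (SD, n = 8) and Igf2r at 32.5 ± 6.18. Igf1 was above Igf2r in 6 of 8 libraries, the exceptions being control 4 and knockout-labelled 4. Igfbp5 at 8.79 ± 4.35 CPM per kilobase was above Igf1r, at 4.56 ± 2.53, in 8 of 8 libraries. Igf1r and Ghr, the latter at 4.10 ± 2.81 CPM per kilobase, overlapped widely, with Igf1r higher in 6 of 8. Igfbp6 averaged 0.587 CPM per kilobase and was below Ghr in 6 of 8 libraries. The exceptions were both libraries numbered 4, and in control 4 Igfbp6, at 1.89, was also above Igf1r, at 1.30. Igfbp3 at 0.108 and Igf2 at 0.072 CPM per kilobase were not separated, with Igfbp3 higher in 5 of 8. Lengths are those of all annotated exons joined, so a gene read mainly from a short isoform is understated on this scale.

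Among the ligands, Igf1 was abundant and Igf2 nearly absent. Igf1 had 843, 649, 747 and 73.7 CPM in controls 1 to 4, compared with 920, 786, 868 and 135.6 CPM in knockout-labelled 1 to 4. The libraries numbered 1 to 3 were high in both groups and those numbered 4 low, and the groups overlapped. Relative to the mean of numbers 1 to 3 of the same group, Igf1 was lower by a factor of 10.1 in control 4 and 6.32 in knockout-labelled 4. Igf1 was higher in the knockout-labelled library of all 4 pairs of the same number, with ratios of 1.09, 1.21, 1.16 and 1.84, where 15.4% of all 12837 genes tested were higher in all 4 pairs. Over all 8 libraries Igf1 differed by 0.23 on the log2 scale (SE 0.77, 95% interval −1.55 to 2.01), and the adjusted p was 0.9999 in edgeR's quasi-likelihood test, with an exact two-sided permutation p of 0.486.

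Igf2 had 2 to 12 counts per library, at most 0.675 CPM. The gene is a main growth factor of fetal and skeletal tissue. In control 1, control 4 and knockout-labelled 4 its count did not exceed the limit of 3 counts that a count of 0 allows, and with no filter it differed by 0.45 on the log2 scale, SE 0.67 (edgeR adjusted p = 0.9998). An antisense gene, Igf2os, overlaps its exons and had at most 3 counts.

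The levels of the 10 genes in each library are plotted next, ligands and receptors first.

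**Figure D1:**
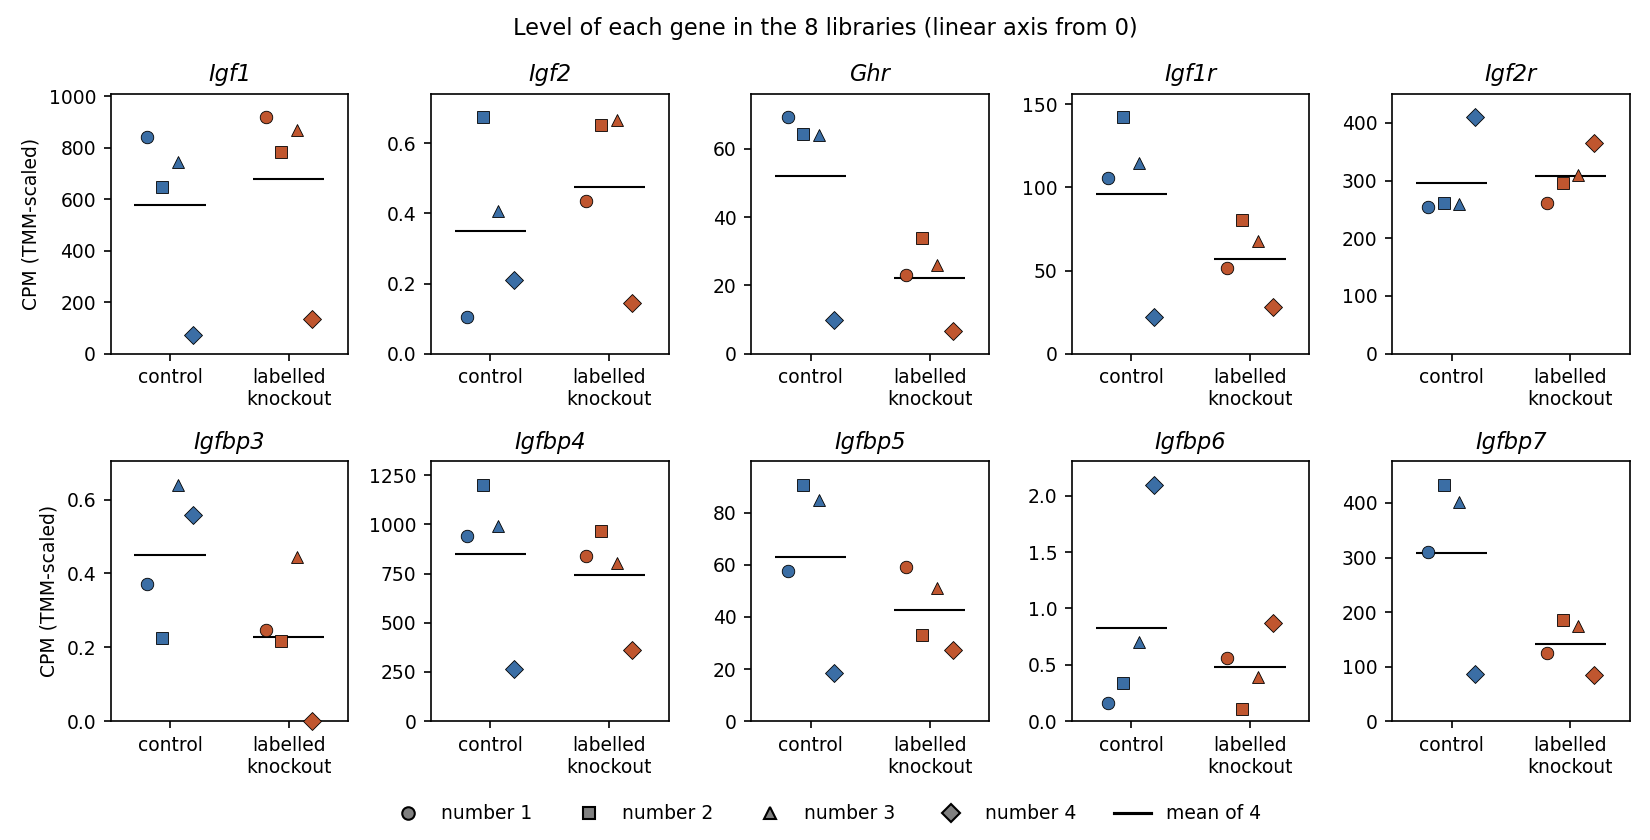
Each panel plots the CPM of 1 gene (linear axis from 0) in the 4 controls and the 4 libraries labelled knockout, with the library number as the symbol and the mean of 4 as a line. Ghr, Igf1r and Igfbp7 sit lower in knockout-labelled 1 to 3 than in controls 1 to 3, while the libraries numbered 4 are low in both groups for these genes and for Igf1 and Igfbp4 and high for Igf2r.

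The growth hormone receptor and Igfbp7 showed the largest differences by fold among the 7 genes tested, and their order was not separated: without control 1 they differed by −1.05 and −1.11 on the log2 scale. Ghr had 69.3, 64.5, 64.1 and 9.86 CPM in controls 1 to 4, compared with 23.0, 33.7, 25.9 and 6.63 CPM in knockout-labelled 1 to 4, from counts of 91 to 1309. The gene spans 3317760 to 3583492 on the minus strand of chromosome 15 (GRCm38). Among numbers 1 to 3 every control was above every library labelled knockout, but control 4 was below knockout-labelled 1 to 3, so over all 8 libraries the groups overlapped. Within pairs of the same number the ratio to control was 0.331, 0.523, 0.404 and 0.672, lower in 4 of 4, as were 13.4% of all genes tested. Over 8 libraries Ghr differed by −1.22 on the log2 scale (SE 0.65, 95% interval −2.72 to 0.29) and was not past the threshold of 0.05 (edgeR adjusted p = 0.9999). The exact two-sided permutation p was 0.286, where the smallest possible is 0.0286.

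With the library number as a block, Ghr fell by 1.15 on the log2 scale (SE 0.16, edgeR adjusted p = 0.0412). In that fit 1.18% of all genes were called lower and 1.31% higher. Igfbp7 (−0.96), Igf1r (−0.60), Igfbp5 (−0.43) and Igfbp4 (−0.09) were lower there without passing, and Igf1 and Igf2r were higher without passing. Of the 7, only Ghr was called lower and 0 were called higher. Dropping pair 1, 2 or 3 ended that call (adjusted p of 0.184, 0.253 and 0.337), at log2 differences of −0.98, −1.2 and −1.07, in fits where 0 of all genes passed in either direction. Without number 4, controls averaged 66.0 ± 2.88 CPM (SD, n = 3), and the knockout-labelled libraries 27.5 ± 5.58 (SD, n = 3). Ghr fell there by 1.26 on the log2 scale (SE 0.13, 95% interval of the change −1.56 to −0.95, edgeR adjusted p = 0.00085). This call held with each of the 6 libraries left out, at adjusted p of 0.000615 to 0.00983.

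Igf1r (chromosome 7, 67952827 to 68233668, plus strand), the receptor kinase for insulin-like growth factor 1, was also lower in numbers 1 to 3 but not in number 4. It had 105.6, 142.2, 114.5 and 21.8 CPM in controls 1 to 4, compared with 51.8, 80.2, 67.8 and 28.0 CPM in knockout-labelled 1 to 4. Groups did not overlap among numbers 1 to 3, and in pair 4 the knockout-labelled library was the higher, with a ratio of 1.29 against 0.490, 0.564 and 0.592 in pairs 1 to 3. Over 8 libraries the log2 difference was −0.75 (SE 0.55, 95% interval −2.02 to 0.51, edgeR adjusted p = 0.9999, exact permutation p = 0.429). Setting number 4 aside, Igf1r fell by 0.85 (SE 0.19, edgeR adjusted p = 0.0324), and that call was lost without control 2 (0.0591), control 3 (0.0872) or knockout-labelled 3 (0.0907). With the block in all 8 libraries Igf1r did not pass (adjusted p = 0.236).

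Igf2r, the clearance and mannose 6-phosphate receptor, did not share this pattern. Igf2r had 255, 260, 260 and 410 CPM in controls 1 to 4, compared with 261, 296, 309 and 365 CPM in knockout-labelled 1 to 4. It was the only one of the 7 tested genes whose 2 libraries numbered 4 were above all 6 others, while the other 6 genes had both below all others. Over all genes tested 34.2% had both libraries numbered 4 on top and 33.8% had both at the bottom. Between genotypes Igf2r differed by 0.06 on the log2 scale (SE 0.20, 95% interval −0.40 to 0.51, edgeR adjusted p = 0.9999). Among numbers 1 to 3 the groups did not overlap, with means of 258 ± 3.25 and 289 ± 24.7 CPM (SD, n = 3), but the difference of 0.16 on the log2 scale did not pass (edgeR adjusted p = 0.174). The noncoding antisense gene Airn lies over introns of Igf2r and had 17 to 79 counts, against 4214 to 5862 for Igf2r.

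**Figure D2:**
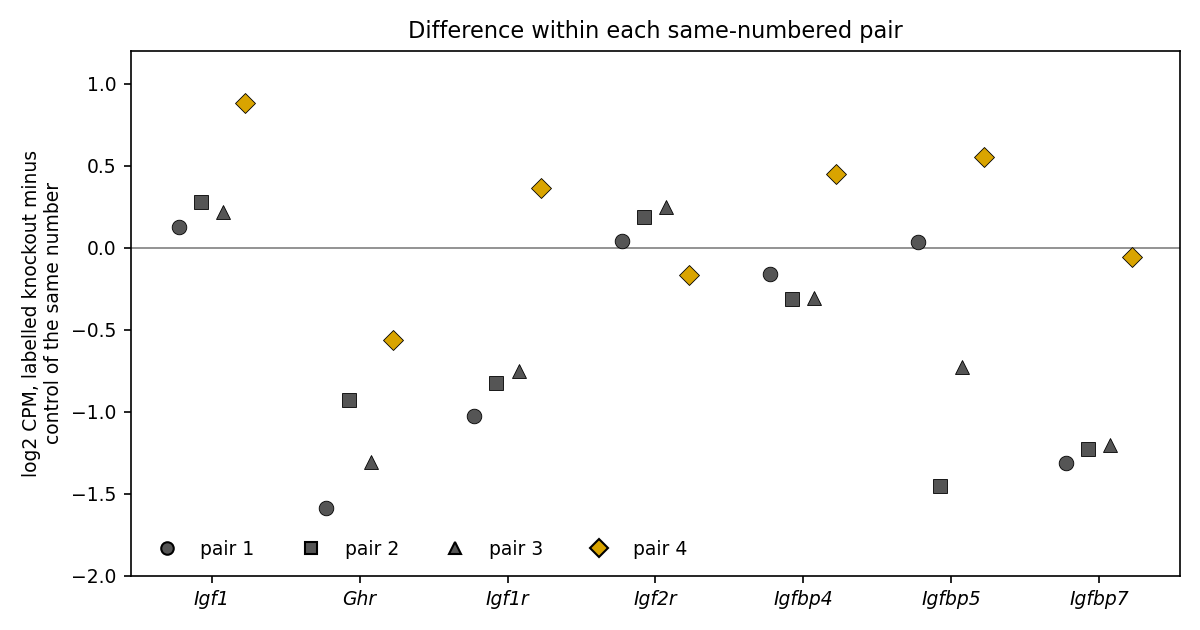
Each symbol is the log2 CPM of a library labelled knockout minus that of the control with the same number, for the 7 genes tested, with pairs 1 to 4 as separate symbols and a line at 0. Ghr is below 0 in all 4 pairs, Igf1r and Igfbp7 are far below 0 in pairs 1 to 3 and at 0.36 and −0.06 in pair 4, and Igf1 is above 0 in all 4.

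The binding proteins differed among themselves. Igfbp7 (chromosome 5, 77349240 to 77408041, minus strand) was lower in numbers 1 to 3 by about as much as Ghr, whereas Igfbp4 differed little. Igfbp7 had 310.5, 433.6, 401.1 and 87.1 CPM in controls 1 to 4, compared with 124.8, 184.9, 174.4 and 83.8 CPM in knockout-labelled 1 to 4. The ratio to control was 0.402, 0.427 and 0.435 in pairs 1 to 3, and 0.961 in pair 4. Over 8 libraries the log2 difference was −1.12 (SE 0.48, 95% interval −2.23 to −0.0038), with an unadjusted p of 0.0494, an edgeR adjusted p of 0.9999 and an exact permutation p of 0.143. Igfbp7 fell by 1.24 on the log2 scale in numbers 1 to 3, SE 0.19 (edgeR adjusted p = 0.00852), and this held with each of the 6 libraries left out (0.00474 to 0.0439). With the block over 8 libraries it did not pass (adjusted p = 0.103). Exons of Polr2b, a subunit of RNA polymerase II, lie on the opposite strand over exons of Igfbp7. Whether counting used strand is not given in these sources, and Polr2b had 1078 to 1310 counts in controls and 1004 to 1441 in the others, with Igfbp7 at 1150 to 7713.

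Igfbp4, an inhibitory binding protein, had 940, 1202, 993 and 264 CPM in controls 1 to 4, compared with 840, 966, 804 and 361 CPM in knockout-labelled 1 to 4. Libraries numbered 4 were low and the groups overlapped. It differed by −0.19 on the log2 scale (SE 0.48, 95% interval −1.29 to 0.91, edgeR adjusted p = 0.9999). Without number 4 it was −0.26 (SE 0.11, adjusted p = 0.155), and Igfbp4 fell by 0.26 there once the number was a block (SE 0.05, adjusted p = 0.00638), where 11.9% of all genes were called lower and 12.3% higher. In that same fit Igf1 rose by 0.21, SE 0.05 (edgeR adjusted p = 0.0164), so the calls of Igf1 and Igfbp4 rest on the pairing by number.

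Igfbp5, a binding protein stored in bone matrix, varied more between pairs than the other 6 genes tested. Igfbp5 had 57.6, 90.7, 85.0 and 18.5 CPM in controls 1 to 4, compared with 59.1, 33.0, 51.2 and 27.2 CPM in knockout-labelled 1 to 4. The ratio to control was 1.03, 0.364, 0.602 and 1.47 in pairs 1 to 4, so the pairs did not share a direction. It differed by −0.56 on the log2 scale (SE 0.48, 95% interval −1.67 to 0.54, edgeR adjusted p = 0.9999), and −0.70 in numbers 1 to 3 (adjusted p = 0.169). DESeq2 on numbers 1 to 3 did call it lower (−0.70, adjusted p = 0.00704), so its call there depends on the tool.

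Igfbp3 and Igfbp6 were near the limit of detection. Igfbp3, the main carrier of the growth factors in blood, had 7, 4, 11 and 8 counts in controls 1 to 4 and 4, 4, 8 and 0 in the knockout-labelled libraries, where a count of 0 allows up to 3 counts. Igfbp6, which prefers insulin-like growth factor 2, had 3, 6, 12 and 30 counts in controls and 9, 2, 7 and 12 in the knockout-labelled libraries, with the highest count of each group in the library numbered 4. Tested with no filter, Igfbp3 differed by −0.92 (SE 0.78) and Igfbp6 by −0.75 (SE 0.85) on the log2 scale (edgeR adjusted p = 0.9998 for both), so no difference was detectable at this depth.

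**Figure D3:**
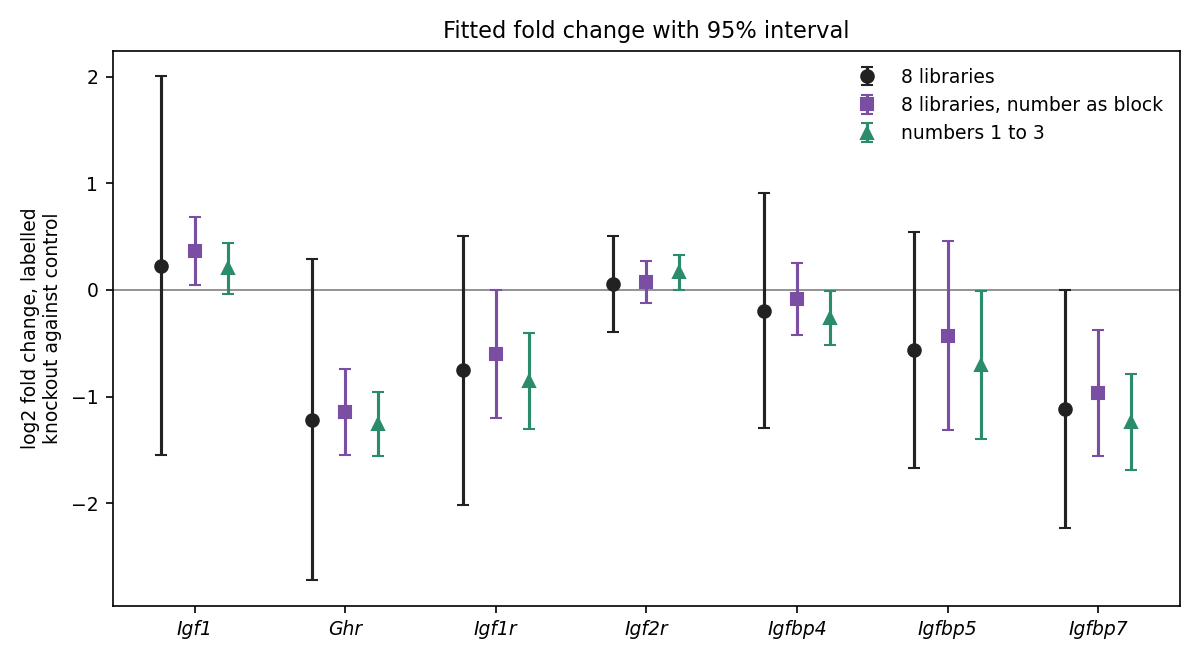
Points are log2 fold changes of the 7 genes tested (labelled knockout against control) with 95% intervals, fitted with edgeR over 8 libraries, over 8 libraries with the library number as a block, and over numbers 1 to 3 alone. Over 8 libraries 6 of 7 intervals span 0 and that of Igfbp7 ends at −0.0038, while in numbers 1 to 3 those of Ghr, Igf1r and Igfbp7 end at −0.95, −0.40 and −0.79. In numbers 1 to 3 the intervals of Igfbp4 (ending at −0.012), Igfbp5 (ending at −0.0096) and Igf2r (starting at 0.00055) also leave out 0, narrowly, though their adjusted p did not pass, and that of Igf1 (−0.034 to 0.44) spans 0.

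Counted over the set, 0 of the 7 genes passed over all 8 libraries, as did 0% of 12837 genes, where 631 genes and 1 of the 7 had an unadjusted p under 0.05. DESeq2 called 147 genes (0.807% of 18223) on the same libraries and limma-voom 0, and neither called any of the 7. The median log2 fold change of the 7 was −0.56 against −0.02 over all genes, and 2 of the 7 were positive. The groups of 4 overlapped for all 7, where 2.32% of all genes were higher and 1.27% lower without overlap. Without number 4, 3 of the 7 were called lower, beside 6.29% of all genes, and 0 were called higher, beside 7.78%. The groups did not overlap there for Ghr, Igf1r and Igfbp7 on the lower side (16.5% of all genes) and for Igf2r on the higher side (18.2%). The median SE of the 7 was 0.48 over 8 libraries and 0.13 in numbers 1 to 3. Whether the difference between genotypes itself differs between number 4 and the others was not tested.

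Some markers of other cells differed alongside these genes. Over numbers 1 to 3 the 9 stromal and fibroblast markers summed to 12286 to 17653 CPM in controls, compared with 9613 to 11185 CPM in the other group, a ratio of means of 0.713, beside 0.417 for Ghr, 0.423 for Igfbp7 and 0.551 for Igf1r. Fibronectin, Fn1, made up 68.6% to 88.2% of that sum and was the only one of 7 tested stromal markers called there, with a log2 fold change of −0.62 (edgeR adjusted p = 0.0144). Without Fn1 the sums overlapped, with controls at 1445 to 4118 CPM and the others at 2265 to 3020 CPM. The other 6 tested stromal markers differed by −1.01 (Thy1) to 0.68 (Postn), with Pdgfrb at −0.69, Col5a1 at −0.14, Pdgfra at −0.03 and Col3a1 at 0.06, and 0 of 11 tested osteoblast markers were called. The macrophage sum ran from 40519 to 53527 CPM in controls, compared with 45051 to 50224 CPM, and of its 15 genes Mrc1 was called higher (0.44) and Cd14 lower (−0.66). The 5 adipocyte markers summed to 117.3 to 130.4 CPM in controls, compared with 301.3 to 458.1 CPM, as Lpl rose by 1.55 (edgeR adjusted p = 0.0025) and Fabp4 rose too (adjusted p = 0.0407), with Adipoq at 0 in all of these libraries except control 2. Of 6 tested osteoclast markers, Dcstamp was called lower (−2.19, edgeR adjusted p = 0.0118) and Atp6v0d2 higher (0.97, adjusted p = 0.0144). The osteoclast sums overlapped, at 140.8 to 233.6 CPM in controls 1 to 3 and 152.0 to 174.2 CPM in the others. The part of other cell types in the differences was not tested.

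The mix of binding proteins separated the groups in all 8 libraries, number 4 included. Of the summed length-scaled level of the 5 binding proteins, Igfbp7 made up 53.6%, 55.5%, 58.0% and 52.6% in controls 1 to 4 and 34.0%, 40.5%, 43.0% and 44.3% in the knockout-labelled libraries. Igfbp4 made up 44.4%, 42.1%, 39.3% and 43.6% in controls and 62.6%, 58.0%, 54.3% and 52.3% in the others. Every library labelled knockout thus held more Igfbp4 than Igfbp7 per kilobase and every control less. These 2 genes made up nearly all of the sum, so their shares and their ratio describe the same contrast. In pairs 1 to 3 the ratio to control was 0.402 to 0.435 for Igfbp7 and 0.803 to 0.894 for Igfbp4. Pair 4 differed from this, at 0.961 for Igfbp7 and 1.37 for Igfbp4, so there Igfbp4 was higher and Igfbp7 differed little. The ratio of Igfbp4 to Igfbp7 in CPM was 3.03, 2.77, 2.48 and 3.03 in controls and 6.73, 5.22, 4.61 and 4.30 in the knockout-labelled libraries. Among all other genes tested, 0.382% gave a ratio of Igfbp4 to the gene that was higher without overlap, which counts only the direction seen. In one direction or the other, 3.8% of the ratios of all pairs of genes tested did not overlap. The sum itself did overlap: it was 479, 646, 572 and 136.9 CPM per kilobase in controls and 304, 377, 335 and 156.2 in the others.

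**Figure D4:**
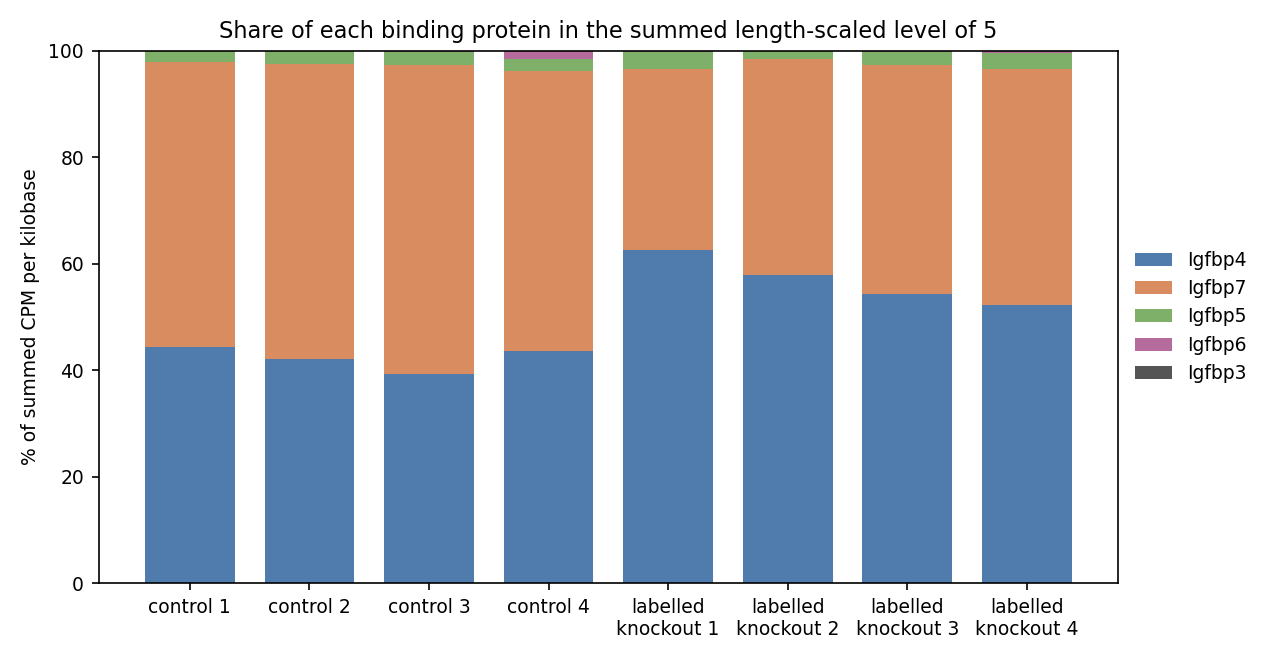
Bars show the share (%) of each of 5 binding proteins in their summed CPM per kilobase, 1 bar per library. Igfbp7 takes 52.6% to 58.0% in controls and 34.0% to 44.3% in the knockout-labelled libraries, and Igfbp3 is too low to see.

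The ratio of Igf1 to Ghr, a growth hormone target and the receptor upstream of it, also separated the groups. It was 12.2, 10.1, 11.6 and 7.48 in CPM in controls and 40.1, 23.3, 33.5 and 20.5 in the knockout-labelled libraries. Among all other genes tested, 0.374% gave a higher ratio of Igf1 to the gene without overlap. Of the 21 ratios between the 7 genes, 4 did not overlap between the groups in one direction or the other, beside 3.8% of the ratios of all pairs of genes tested. Besides the ratios already described, these were Igf1r to Ghr and Ghr to Igfbp4, and both separated narrowly. Igf1r to Ghr reached 2.21 in controls and started at 2.26 in the knockout-labelled libraries, and Ghr to Igfbp4 started at 0.0374 in controls and reached 0.0349 in the others. The 4 ratios share genes, as Ghr is in all of them but that of Igfbp4 to Igfbp7. The ratios were inspected after the levels were known and are given without a test. The shares of 0.382% for Igfbp4 and 0.374% for Igf1 count only the direction that was seen.

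Upstream sequences are shown for the 3 genes that were lower in numbers 1 to 3. They are also shown for 2 that were not called there without the block, Igf2r and Igfbp4. They let a reader compare annotated starts, and which starts were used in these libraries was not measured. Each line holds the 250 bases before a RefSeq start on GRCm38.p6, written 5′ to 3′ on the gene's strand, and none overlaps an annotated exon. Capitals mark matches on either strand to TATAAA (the TATA box), GGGCGG (the GC box), TGANTCA (AP-1), CACGTG (an E-box) or TTCNNNGAA (the STAT5 type of site).
Ghr: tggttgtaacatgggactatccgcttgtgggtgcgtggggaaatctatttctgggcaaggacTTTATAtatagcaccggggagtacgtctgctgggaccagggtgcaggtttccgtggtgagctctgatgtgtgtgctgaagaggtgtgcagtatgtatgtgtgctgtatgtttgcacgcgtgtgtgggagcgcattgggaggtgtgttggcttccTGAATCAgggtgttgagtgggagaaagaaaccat
Igf1r: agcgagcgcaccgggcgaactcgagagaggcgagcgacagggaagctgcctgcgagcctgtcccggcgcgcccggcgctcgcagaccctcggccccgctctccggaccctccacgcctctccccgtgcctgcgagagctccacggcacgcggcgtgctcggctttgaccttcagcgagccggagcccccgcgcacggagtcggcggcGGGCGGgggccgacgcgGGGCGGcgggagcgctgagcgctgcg
Igfbp7: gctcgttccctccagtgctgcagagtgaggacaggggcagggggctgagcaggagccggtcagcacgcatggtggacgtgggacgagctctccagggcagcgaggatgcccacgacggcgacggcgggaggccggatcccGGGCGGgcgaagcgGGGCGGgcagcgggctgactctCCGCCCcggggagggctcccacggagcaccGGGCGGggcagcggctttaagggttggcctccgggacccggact
Igf2r: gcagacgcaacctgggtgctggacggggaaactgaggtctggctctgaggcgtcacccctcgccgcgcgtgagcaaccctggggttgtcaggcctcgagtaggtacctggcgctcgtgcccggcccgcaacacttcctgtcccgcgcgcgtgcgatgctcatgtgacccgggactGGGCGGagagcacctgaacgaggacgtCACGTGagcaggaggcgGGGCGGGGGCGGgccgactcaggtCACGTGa
Igfbp4: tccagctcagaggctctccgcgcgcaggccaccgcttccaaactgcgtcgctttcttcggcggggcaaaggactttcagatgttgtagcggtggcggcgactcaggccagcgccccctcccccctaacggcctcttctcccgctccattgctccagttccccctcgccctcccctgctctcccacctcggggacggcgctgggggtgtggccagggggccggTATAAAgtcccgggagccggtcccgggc
The windows are chr15:3581843-3582092 (minus strand, the second of 2 Ghr starts), chr7:67952007-67952256 (plus), chr5:77408046-77408295 (minus), chr17:12769707-12769956 (minus) and chr11:99040994-99041243 (plus).

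Ghr, Igf1r and Igfbp7 did not all share a motif in these windows. Igfbp7 held 4 GC boxes and Igf1r 2, while this Ghr window held none, and Igf2r held 3, of which 2 lie side by side. A GC box was found in 32.7% of 32851 windows of the same length. The Ghr window held 1 TATA box and 1 AP-1 match, found in 12.4% and 6.75% of all windows, and Igfbp4 held 1 TATA box. The TATA match of Ghr was on the opposite strand and began 188 bases before the start. That of Igfbp4 was on the gene's own strand and began 28 bases before it. Igf2r alone of the 5 held the E-box, with 2 matches (6.02% of all windows). The STAT5 type of site was in none of the 5 and in 7.02% of all windows. Igf1r held 42 CpG dinucleotides, more than 99.1% of all windows, Igf2r 27, Igfbp7 26, Igfbp4 22 and Ghr 8, where the median was 6. A match of letters is a description of the window and not a measured binding site.

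Of 11 other genes of the insulin and growth factor family, 4 had enough counts to test, and Ins1, Ins2, Igfbp1, Insrr and Irs4 had no counts, which allows up to 3. Over 8 libraries 0 of the 4 passed. Irs2, an adaptor of the insulin and Igf1 receptors, had 78.3, 90.3, 82.3 and 10.1 CPM in controls, compared with 45.7, 49.2, 46.8 and 13.3 CPM in the knockout-labelled libraries. Without number 4 Irs2 fell by 0.82 on the log2 scale (SE 0.07, edgeR adjusted p = 0.000317). It was the only 1 of the 4 called lower, beside 6.29% of all genes, and over 8 libraries it differed by −0.75 (SE 0.65). The insulin receptor Insr (0.06), Irs1 (0.56) and Igfbp2 (−0.97) did not pass in numbers 1 to 3.

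Genes that act below the growth hormone receptor formed a list of 11, of which 10 were tested and 0 passed over 8 libraries (median −0.03, against −0.02 over all genes). Without number 4, 2 of 10 were called lower and 0 higher, beside 6.29% and 7.78% of all genes. Those called lower were Socs2, a feedback inhibitor induced by growth hormone, at −0.87, SE 0.22 (edgeR adjusted p = 0.0429), and Socs3, a feedback inhibitor of cytokine receptors, at −0.47, SE 0.11 (adjusted p = 0.0257). Socs2 had 16.8, 27.0, 18.8 and 4.75 CPM in controls, compared with 12.5, 13.1, 8.67 and 7.21 CPM in the others. Among numbers 1 to 3 its groups did not overlap, as for 16.5% of all genes on the lower side. The feedback gene Cish (−0.81), the kinase Jak2 (0.11) and the transcription factor Stat5b (−0.03) did not pass. With the block in numbers 1 to 3 Cish did (−0.86, edgeR adjusted p = 0.027), as did the phosphatases Ptpn1 and Ptpn6 on the higher side (0.25 and 0.26). In that fit 3 of the 10 were called lower and 2 higher, beside 11.9% and 12.3% of all genes.

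Of 26 genes that relay the Igf1 receptor signal, all were tested and 0 passed over 8 libraries (median 0.02). Setting number 4 aside, 4 were called higher and 1 lower, beside 7.78% and 6.29% of all genes. Pik3r1, the regulatory subunit of PI 3-kinase, rose by 0.44, SE 0.06 (edgeR adjusted p = 0.00207), from 123.5, 118.3 and 112.4 CPM in controls 1 to 3 to 162.0, 158.8 and 157.6 CPM. The adaptors Grb14 (0.87) and Grb2 (0.25) rose too, with adjusted p of 0.0414 and 0.0426. Eif4ebp1, a repressor of translation controlled by mTOR, fell by 0.28, SE 0.06 (adjusted p = 0.0146) and was the only one called with the block over 8 libraries (−0.28, edgeR adjusted p = 0.046). Pik3cd, a catalytic subunit of PI 3-kinase, and Tsc1, an inhibitor of mTOR, differed by 0.21 and 0.13 over 8 libraries. The kinases Akt1 (−0.07), Akt2 (0.06) and Mtor (−0.13) did not pass in numbers 1 to 3.

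Of 10 genes for enzymes that cut binding proteins and for their partners, 7 were tested, and 0 passed over 8 libraries or in numbers 1 to 3. Pappa, the protease that cuts the protein of Igfbp4, stood at 121.8, 275.0, 167.0 and 18.8 CPM in controls, compared with 116.7, 153.3, 127.5 and 18.0 CPM in the others. The serine protease Htra1 went the other way between numbers, at 29.5 to 50.8 CPM in numbers 1 to 3 and 272.3 and 142.8 CPM in control 4 and knockout-labelled 4. Stc1, an inhibitor of Pappa, had at most 44 counts.

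Each tested gene had close companions over the libraries, given as a description. Over the 8 libraries the genes most like Ghr in log2 CPM were 4931406P16Rik, Chtf8 and Map4k3 (Pearson r of 0.991, 0.989 and 0.988, and 0.972, 0.985 and 0.957 over numbers 1 to 3). Those most like Igf1r were Foxk2, Bgn and Synpo (r of 0.997, 0.996 and 0.996), where Bgn encodes the matrix proteoglycan biglycan. Igfbp7 was closest to Prkar1b, Cdon and Slc29a1 (0.995, 0.992 and 0.990), Igfbp4 to Pdlim5, Wwc2 and Fgf7 (0.997 each), Igfbp5 to Tsc22d1, Ccl7 and Btbd10 (0.979, 0.973 and 0.963), Igf1 to Cat, Dop1b and Zfp704 (0.999, 0.998 and 0.998), and Igf2r to Cars, Acad9 and Xrcc1 (0.987, 0.986 and 0.982). All were picked as the highest of 9215 candidates, whose median r was −0.10 with Ghr and −0.08 with Igfbp7, and all the points share the contrast of number 4 with the other libraries. Among the members, Ghr and Igfbp7 correlated at 0.957 over 8 libraries and 0.951 over the 6 numbered 1 to 3. Both were lower without overlap in knockout-labelled 1 to 3, so the latter value includes the group difference. The correlation of Igf1 changed sign with every other tested member. Igf1 and Igf1r turned from 0.834 to −0.874, and Igf1 and Igfbp4 from 0.947 to −0.949. With Ghr it went from 0.796 to −0.678, with Igfbp7 from 0.677 to −0.819 and with Igfbp5 from 0.794 to −0.514. With Igf2r it went from −0.906 to 0.240. These values over numbers 1 to 3 include the group differences too.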

How the data were processed

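The members and gene lists were chosen with earlier results of these data known. The authors deposited integer read counts by gene symbol. The tools that the submitters' processing notes list are STAR (2.7.11b) and featureCounts (2), with GRCm38 (mm10); annotation, strand and multi-mapping settings are not given in the sources used here. Of 25239 symbols, 24323 (96.4%) matched 1 GENCODE M21 gene for lengths and overlaps. Promoter windows are from RefSeq (GRCm38.p6) and matched 10 of 10 members.

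Counts were filtered with filterByExpr (12837 genes), scaled with TMM and tested with edgeR 4.0.16 (R 4.3.3; quasi-likelihood, robust, genotype alone, all 8 libraries), with Benjamini-Hochberg adjustment over all genes and a threshold of 0.05. DESeq2 1.42.0 and limma 3.58.1 were alternatives. Log2 CPM used a prior count of 2. Exact permutation tests were run for 11 genes. The code was tested on simulated data. Nothing says that libraries are separate animals, so p-values measure only the spread between these libraries; within groups the chi-square over its degrees of freedom was 8.56 to 307, beyond sampling noise. Same-numbered libraries deviated together (r of 0.460 to 0.829, minimum 0.1; in numbers 1 to 3 0.161 to 0.376, against −0.255 to −0.0234 for unlike numbers), so the number was used as a block where it changes a call. That pairing comes from the data and not the labels. In all 8 libraries unlike numbers reached 0.572, and 6 of 8 libraries were closest to the one of their own number. Deviations were taken from the group means, so where same numbers go together the values for unlike numbers lean negative by construction.

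Named genes are the members, Sphk2, up to 4 genes per list with the smallest unadjusted p, any list gene that passed with the block, and the 3 genes most like each member. Socs3, Jak2, Grb2, the Akt genes, Mtor, Ptpn6, Stc1, Dlk1, H19, M6pr and the marker genes were named after their values were seen, and 1 counted gene is not reported here. Fits without number 4 set it aside because of its osteoclast marker levels.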

Additional observations from a re-analysis of the deposited data

Results flagged for a closer look

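In 6 of 20 groups of 4 libraries, the library numbered 4 lay far from the other 3 in log2 CPM, measured as its gap to the nearest library over the range of the group (critical value 0.829). These were Igf1 in controls (0.892, at 73.7 CPM) and in the libraries labelled knockout (0.918, at 135.6 CPM), Ghr in controls (0.960, at 9.86 CPM), Igf1r in controls (0.841, at 21.8 CPM), Igfbp4 in controls (0.837, at 264 CPM) and Igf2r in controls (0.953, at 410 CPM). Igf2r was on the high side and the other flagged genes on the low side. Chance flags about 1 in 20 such groups, but these groups come from the same 8 libraries and are not independent. Over all genes tested both libraries numbered 4 lay below all 6 others in 33.8% and above them in 34.2%. Number 4 standing apart was thus common in the series, and the share of all genes flagged by this measure was not computed. The cause was not tested.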

How the results depend on the processing

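Over 8 libraries with genotype alone, 0 genes passed in either direction, and 0 under RLE or upper-quartile factors, library totals, no filter, a stricter filter or limma-voom. DESeq2 gave 105 higher and 42 lower, and the number as a block 168 higher and 151 lower. Numbers 1 to 3 alone gave 1005 higher and 812 lower, with the block there 1593 and 1539 (the same fit as the block without number 4). With alternatives added after seeing the data, numbers 1 to 3 gave 983 and 825 with RLE factors, 1404 and 623 with library totals, and 1033 and 953 with DESeq2, so the split between higher and lower depends on the scaling. Leaving out each library in turn gave 0 to 25 higher and 0 to 13 lower in 8 libraries, and 455 to 1131 higher and 383 to 986 lower in numbers 1 to 3. Of the 65 pathway genes tested, the block gave 0 higher and 1 lower, numbers 1 to 3 gave 4 and 5, with the block there 9 and 8, with RLE factors 4 and 5, with library totals 8 and 5, and with DESeq2 6 and 6. Leaving out each library gave 0 of either over 8 libraries, and 1 to 6 higher and 2 to 7 lower in numbers 1 to 3.

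Ghr, Igf1r, Igfbp5 and Igfbp7 kept their negative direction under every alternative run. Ghr was at −1.15 with the block and −1.26 in numbers 1 to 3, −1.27 with the block there, −1.26 with RLE factors, −1.20 with library totals and −1.26 with DESeq2. Igf1r was at −0.85, −0.86, −0.86, −0.80 and −0.86 and Igfbp7 at −1.24, −1.25, −1.24, −1.19 and −1.24 under those last 5 settings in that order. Leaving out each library in turn, in 8 libraries and in numbers 1 to 3, gave −1.56 to −0.92 for Ghr, −1.09 to −0.50 for Igf1r and −1.43 to −0.90 for Igfbp7. The call of Igf1r in numbers 1 to 3 was lost without control 2, control 3 or knockout-labelled 3. Igfbp5 passed in numbers 1 to 3 with DESeq2 alone (−0.70).

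The others crossed 0. Leaving out each library gave −0.14 (without control 4) to 0.57 for Igf1. Igf2r gave −0.035 (without knockout-labelled 4) to 0.25, and it was also negative without control 1 or 3. Igfbp4 gave −0.50 to 0.036 (without knockout-labelled 4), and it was also positive without control 2. With the block in numbers 1 to 3, Igf1 (0.21) and Igfbp4 (−0.26) passed. Sphk2, which passed nowhere, was at −0.05 in all libraries and −0.32 to 0.21 with a library left out (the latter without control 4). It was at 0.0052 with the block without number 3, and at 0.00098 in numbers 1 to 3 with library totals. The replicate block changed no other call of a gene in the set: with it Ghr passed over 8 libraries, and Igf1 and Igfbp4 in numbers 1 to 3. The causes were not tested. Depth limits Igf2, Igfbp3 and Igfbp6, where 3 counts correspond to 0.159 to 0.219 CPM.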

Other observations

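Igf2 is the best known of a network of imprinted genes that are active in growing tissue, and 8 of 9 other genes listed from it could be tested. Over 8 libraries 0 of 8 passed (median log2 difference −0.29, against −0.02 over all genes). Meg3, a noncoding RNA of that network, had 17.4, 19.4, 14.6 and 0.07 CPM in controls 1 to 4, compared with 5.40, 4.62, 6.28 and 1.89 CPM in knockout-labelled 1 to 4. Meg3 fell by 1.65 on the log2 scale in numbers 1 to 3 (SE 0.16, edgeR adjusted p = 0.000513). It was the only 1 of the 8 called there, beside 6.29% of all genes called lower. In number 4 the control was the lower of the pair, below the 0.159 to 0.219 CPM that 3 counts correspond to. Nnat, another imprinted gene, had the smallest unadjusted edgeR p of the list (0.0362, at −0.70 over 8 libraries), from at most 22 counts per library. Dlk1 had at most 2 counts, and H19, the noncoding neighbour of Igf2, was at 0.794 to 9.44 CPM.

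Of 3 genes whose proteins bind the Igf2 messenger, 0 passed in any edgeR fit described here, and Igf2bp2 was the most abundant of them at 6.70 to 25.5 CPM. Of 7 genes for the mannose 6-phosphate route that Igf2r serves, 0 passed either. M6pr, the other receptor of that route, shared with Igf2r its high level in number 4, at 658 and 552 CPM, compared with 255 to 311 CPM in numbers 1 to 3.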
